A study of Mus musculus with 48 samples.

Results

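The genes described here encode receptors for neuropeptides and for hormones that report on metabolism, growth and reproduction. They are 38 genes taken from a written list of such receptors, out of 23284 genes in the count table, and all 38 were found there by symbol. Polyadenylated RNA was sequenced from punches of the preoptic area of female mice. Males homozygous for a Cre that is active in neurons making gonadotropin-releasing hormone (GnRH) had been bred to females homozygous for a floxed-stop L10a-GFP allele. In the offspring, ribosomes of GnRH neurons therefore carried the L10a protein with a green fluorescent tag. Ribosome-bound RNA was pulled down with the tag (the immunoprecipitate, IP, labelled as enriched for GnRH neurons), and the supernatant, labelled as depleted of them, was sequenced beside it.

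In each fraction the mice with Cre fell into 4 groups by age (young, called prepubertal in the series' design text, or adult, taken in diestrus) and by prenatal treatment (vehicle or the androgen dihydrotestosterone, DHT). Each group held 6 libraries, except adult vehicle with 5 in each fraction, which made 46 libraries of the genotype GnRH CRE x Floxed L10a-GFP. A further IP library and a further supernatant library came from the genotype Floxed L10a-GFP, also young, which lacks Cre and so has no tagged ribosomes. Replicates are numbered as biological in the labels, which do not tell single animals from pools. The p-values below therefore cover the spread between the libraries as numbered.

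The 48 libraries held 28136000 to 55479451 counts each. Gnrh1, the marker of the targeted neurons, reached a mean of 3314 to 8109 CPM (a gene's count divided by the total of its library, on a common scale) in the 4 IP groups and 27.9 to 42.0 CPM in the 4 supernatant groups. The library without Cre had 61.6 CPM of Gnrh1 in its IP and 38.2 CPM in its supernatant. Replicate IP libraries resembled each other less than replicate supernatants did, with a median correlation across genes of 0.921 to 0.955 against 0.991 to 0.993. For the receptors, the median coefficient of variation within a group was 51.4% to 85.7% in IP and 20.5% to 24.7% in supernatant. Over all tested genes the same medians were 32.9% to 45.4% and 13.5% to 17.0%. No receptor was at 0 in any supernatant library, whereas 3.07% to 7.37% of the receptor values in an IP group were 0. In bulk RNA, fewer cells of a type and less of a transcript per cell cannot be told apart.

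Most of these receptors sit in the membrane and signal through G proteins. Those for somatostatin, neuropeptide Y, opioids and melanin-concentrating hormone mainly couple to the inhibitory Gi/o class, and those for melanocortins, calcitonin, glucagon-like peptide and pituitary adenylate cyclase-activating polypeptide (PACAP) mainly raise cyclic AMP. Prolactin, growth hormone and leptin instead bind cytokine-type receptors that signal through Jak and Stat proteins, and insulin and insulin-like growth factor bind receptor tyrosine kinases. The preoptic area holds the cell bodies of most GnRH neurons among many other neurons, and hunger, stress, lactation and growth signals act on reproduction in part through such receptors.

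The receptors with a window upstream of their start site in the RefSeq table, build GRCm38.p6, numbered 33. Transcripts of 4 receptors, Adcyap1r1, Ghr, Ghsr and Prlr, were higher in adult than in young vehicle supernatant with no overlap between libraries, and 1 window each is printed for 3 of them as examples. Each run is 250 bases upstream of a start on the plus strand, 5′ to 3′, with capitals where 1 of 4 motifs was found on either strand. The motifs were GGGCGG (the GC box of Sp1), TGACG (the core of the cyclic AMP response element), TTCNNNGAA (the element bound by Stat5) and AGGTCA (a nuclear receptor site). The Adcyap1r1 window is chr6:55451728-55451977, the Prlr window is chr15:10223656-10223905 and the Ghsr window is chr3:27371101-27371350.

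Adcyap1r1: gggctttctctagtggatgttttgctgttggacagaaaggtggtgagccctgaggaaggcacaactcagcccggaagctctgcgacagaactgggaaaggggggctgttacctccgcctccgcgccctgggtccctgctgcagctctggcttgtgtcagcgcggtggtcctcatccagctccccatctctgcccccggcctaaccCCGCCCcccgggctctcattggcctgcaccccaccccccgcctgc
Prlr: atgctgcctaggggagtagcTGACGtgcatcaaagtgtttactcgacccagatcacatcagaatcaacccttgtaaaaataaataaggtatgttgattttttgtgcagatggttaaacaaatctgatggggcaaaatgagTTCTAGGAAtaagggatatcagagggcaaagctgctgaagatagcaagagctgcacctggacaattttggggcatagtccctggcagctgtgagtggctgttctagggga
Ghsr: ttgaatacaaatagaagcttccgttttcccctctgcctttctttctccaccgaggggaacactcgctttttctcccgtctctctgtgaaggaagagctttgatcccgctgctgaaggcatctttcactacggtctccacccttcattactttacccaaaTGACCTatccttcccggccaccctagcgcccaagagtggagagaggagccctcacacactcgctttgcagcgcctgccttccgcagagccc

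The Prlr window precedes an inner start of that gene and lies within an intron of its longer transcripts. This window was chosen after the matches had been seen, and the other 2 windows of Prlr held none of the 4 motifs. Of the 2 windows of Ghr, which are not printed, 1 held GGGCGG at 2 places. The 33 receptors had 45 windows in all. TTCNNNGAA was in 1 of these 45 (2.22%, beside 7.02% of all promoter windows of this length), TGACG in 10 (22.2%, beside 17.8%), AGGTCA in 5 (11.1%, beside 14%) and GGGCGG in 15 (33.3%, beside 32.7%). These matches describe letters only.

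Set per kilobase of exon (GENCODE M21, GRCm38), the receptor with the highest level in both fractions was Oprl1, the receptor for nociceptin. Its mean was 19.5 CPM per kilobase in the 23 IP libraries with Cre (range 4.58 to 29.5) and 18.0 in the 23 supernatants (12.9 to 21.9). In IP it made up 21.7% of the summed per-kilobase level of the 38 receptors. Mchr1, the receptor for melanin-concentrating hormone, followed in IP at 9.23 CPM per kilobase (3.63 to 13.8), then Adcyap1r1, the PACAP receptor, at 7.32 (2.75 to 15.1). In supernatant Adcyap1r1 came before Mchr1, at 9.70 (6.53 to 13.0) and 7.79 (5.29 to 10.9) CPM per kilobase. Within a fraction, the ranges over libraries of these 3 receptors overlapped at each step of the order.

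The next in order were Npy2r, a presynaptic neuropeptide Y receptor, and Cckar, a cholecystokinin receptor, in IP, and Sstr1, a somatostatin receptor, and Npy2r in supernatant. The lowest levels per kilobase in IP were those of Ghsr, the ghrelin receptor (0.0722), Oprm1, the mu opioid receptor (0.106), Calcrl (0.125) and Grpr, the gastrin-releasing peptide receptor (0.145). The lowest in supernatant were Oprm1 (0.0912), Vipr1, a receptor for vasoactive intestinal peptide (0.208), Grpr (0.235) and Lepr, the leptin receptor (0.237). Without strand information, reads of Oprm1 and Nmbr cannot be told apart from those of genes that overlap them on the other strand, over 96 and 504 bases, and Prlr shares 203 bases with a gene on its own strand.

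The first comparison asks which receptor transcripts were enriched or depleted with the GnRH neuron pull-down. Averaged over the 4 conditions, 9 of 38 receptors differed between IP and supernatant, 2 of them higher in IP (Insr and Mchr1) and 7 lower (Calcrl, Sstr1, Adcyap1r1, Igf1r, Crhr1, Ghsr and Glp1r). That is 23.7% of the receptors, beside 46.1% of all tested genes. By direction, 5.26% of receptors were higher in IP beside 24.4% of all genes, and 18.4% were lower beside 21.7%. The median log2 difference was 0.03 for the receptors and -0.003 for all genes, and the median standard error (SE) was 0.28 and 0.15. Here and below, differences are log2 fold changes from edgeR's quasi-likelihood test with Benjamini-Hochberg adjustment over all tested genes, with a gene called at an adjusted p below 0.05. At an unadjusted p below 0.05, 12 of 38 receptors passed, beside 52.1% of all genes.

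**Figure D1:**
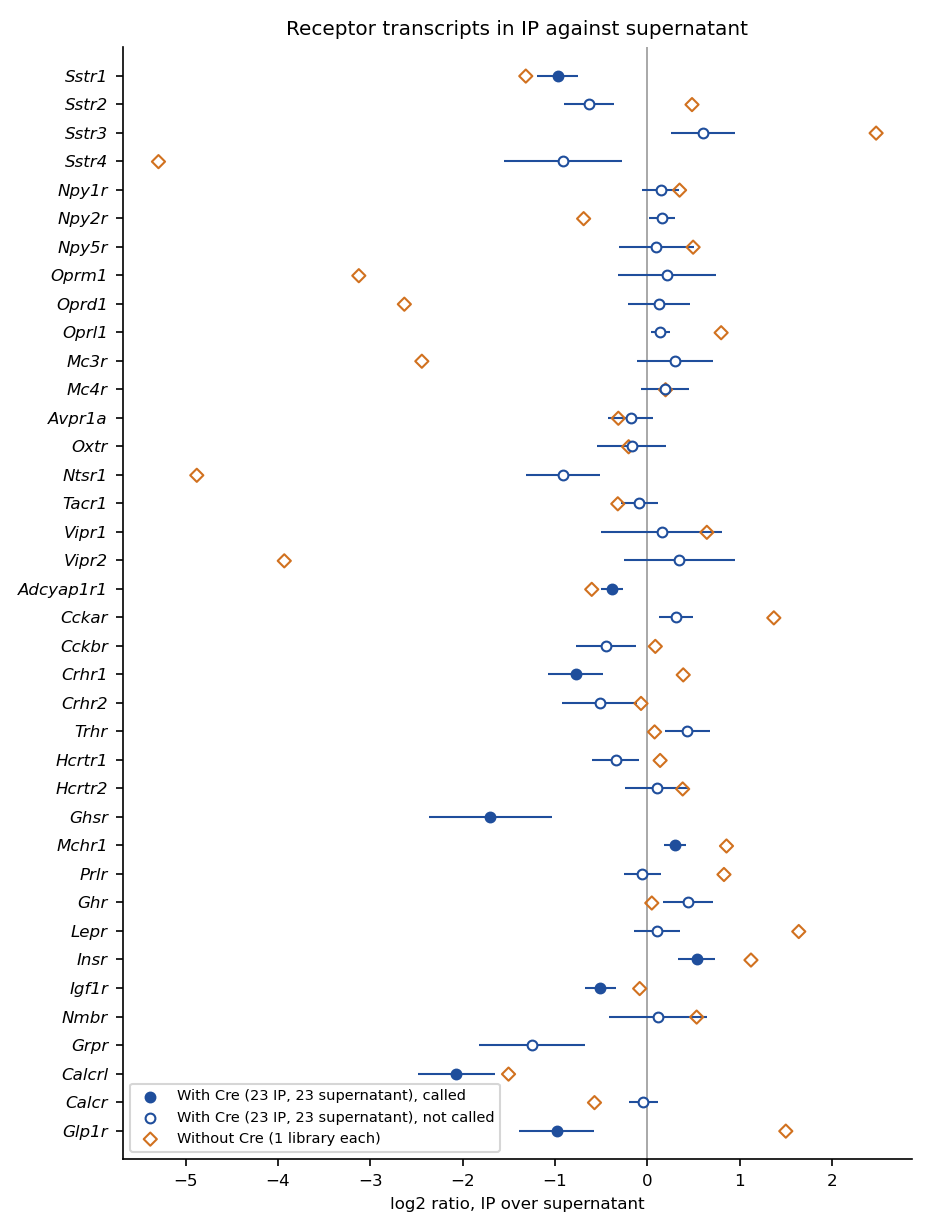
Log2 difference between IP and supernatant for each of the 38 receptors, averaged over the 4 conditions (points, bars ± SE, 46 libraries), with the ratio in the pair of libraries without Cre as diamonds. Insr and Mchr1 passed the test on the higher side and 7 receptors, led by Calcrl, on the lower side, and Ghsr and Grpr have no diamond because their count in the IP without Cre was 0.

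Among the receptors lower in IP, Calcrl stood lowest. It encodes the calcitonin receptor-like receptor, which with a RAMP partner binds CGRP or adrenomedullin and is known for its expression in endothelium (chromosome 2, 84330626 to 84425411, minus strand). In the 23 IP libraries it ran from 0 CPM per kilobase through a median of 0.0177 to 0.772, and in the 23 supernatants from 0.102 through 0.248 to 0.503. It was lower in IP by a log2 difference of -2.07 ± 0.42 (SE, edgeR adjusted p = 5.36e-05), and it was called in all 46 fits that left out 1 library.

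Sstr1, a somatostatin receptor that inhibits adenylyl cyclase (chromosome 12, 58211772 to 58214444, plus strand), was lower in IP in every condition by the group medians. In young vehicle mice it ran from 5.09 through 7.79 to 9.11 CPM in IP and from 10.3 through 14.5 to 17.1 CPM in supernatant, with no overlap. In adult DHT mice the IP ran from 0.118 through 4.57 to 12.4 CPM and overlapped the supernatant, at 11.9 through 13.0 to 15.8 CPM. Over the 4 conditions Sstr1 averaged 7.02 CPM in IP and 14.1 CPM in supernatant, a log2 difference of -0.97 ± 0.22 (edgeR adjusted p = 2.66e-04). The call was made in all 46 fits with 1 library left out.

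The PACAP receptor Adcyap1r1 (chromosome 6, 55451978 to 55501451, plus strand) averaged 48.3 CPM in IP and 64.0 CPM in supernatant, with a log2 difference of -0.38 ± 0.12 (edgeR adjusted p = 0.0087). Its libraries did not overlap in young DHT mice, where the IP ran from 21.4 through 42.4 to 47.2 CPM and the supernatant from 48.5 through 51.2 to 76.5 CPM. In adult DHT mice they did, at 37.99 through 62.8 to 99.8 CPM against 63.0 through 74.0 to 85.6 CPM. Igf1r, the receptor tyrosine kinase for insulin-like growth factor, averaged 6.26 CPM in IP and 9.11 CPM in supernatant, with a log2 difference of -0.51 ± 0.17 (adjusted p = 0.012). Its libraries too were apart in young DHT mice, from 2.46 through 5.14 to 6.94 CPM in IP and from 7.35 through 9.48 to 10.9 CPM in supernatant. Both receptors were called in every fit with 1 library left out.

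Crhr1, the main receptor for corticotropin-releasing hormone and part of the stress axis, averaged 3.87 CPM in IP and 6.38 CPM in supernatant (log2 difference -0.77 ± 0.30, edgeR adjusted p = 0.0296). In adult vehicle mice its 5 IP libraries held 3.79, 0.0768, 0.0553, 0.300 and 4.50 CPM, all below the supernatants at 7.28, 7.16, 6.05, 7.47 and 7.73 CPM. The adult vehicle IP thus split into 3 libraries at or under 0.300 CPM and 2 near the level of young IP, whose medians were 5.06 CPM with vehicle and 4.20 CPM with DHT. Within adult vehicle mice the log2 difference was -1.94 ± 0.66 (adjusted p = 0.0253), which became 0.0505 without adult vehicle IP replicate 3 and 0.0634 without replicate 4. In a fit of the 2 adult vehicle groups alone the difference was -1.96 ± 1.05 with an adjusted p of 0.257, which ends the call.

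Ghsr, the ghrelin receptor (chromosome 3, 27371351 to 27378010, plus strand), averaged 0.320 CPM in IP and 1.17 CPM in supernatant (log2 difference -1.70 ± 0.67, edgeR adjusted p = 0.0332). It was listed at 0 in 3 of 6 young vehicle, 3 of 6 young DHT, 2 of 5 adult vehicle and 4 of 6 adult DHT IP libraries, and in no supernatant. Without young DHT supernatant replicate 2 its adjusted p was 0.0553. Glp1r, the receptor for glucagon-like peptide 1 (chromosome 17, 30901817 to 30940791, plus strand), averaged 1.16 CPM in IP and 2.42 CPM in supernatant, with a log2 difference of -0.98 ± 0.40 (adjusted p = 0.0436). In young vehicle mice it ran from 0.620 through 0.867 to 2.98 CPM in IP and from 1.05 through 1.53 to 2.28 CPM in supernatant. That call was made in 31 of 46 fits with 1 library left out, in which the adjusted p reached 0.0612.

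The pair higher in IP differed by small amounts. Insr, the insulin receptor (chromosome 8, 3122061 to 3279617, minus strand), averaged 6.14 CPM in IP and 4.42 CPM in supernatant (log2 difference 0.53 ± 0.20, edgeR adjusted p = 0.0281). In young vehicle mice it ran from 3.10 through 5.16 to 9.19 CPM in IP and from 2.17 through 4.32 to 5.86 CPM in supernatant, and the ranges overlapped in every condition. The highest value, 18.0 CPM, was that of adult DHT IP replicate 3, and without it the log2 difference was 0.37 with an adjusted p of 0.0860. The call was also lost without adult vehicle IP replicate 1 or 2, young vehicle IP replicate 6 or adult vehicle supernatant replicate 3, with adjusted p from 0.0539 to 0.0625.

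Mchr1, the receptor for melanin-concentrating hormone, a peptide of the lateral hypothalamus linked to feeding and sleep (chromosome 15, 81235499 to 81238964, plus strand), averaged 20.2 CPM in IP and 17.0 CPM in supernatant (log2 difference 0.30 ± 0.11, edgeR adjusted p = 0.0289). In young vehicle mice it ran from 12.5 through 24.5 to 30.1 CPM in IP and from 11.6 through 13.9 to 17.4 CPM in supernatant. The adult vehicle IP libraries held 7.96, 26.9, 23.5, 28.8 and 27.0 CPM and the supernatants 12.7, 20.7, 19.8, 24.0 and 23.4 CPM. Without 1 library the call was made in 37 of 46 fits, with an adjusted p of up to 0.0873. Scaled to library totals without TMM, Mchr1 was not called.

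The pull-down without Cre is the background for these differences. There Insr was 2.18-fold higher in IP than in supernatant (95% counting interval 1.70 to 2.81) and Mchr1 1.81-fold higher (1.58 to 2.08), so both stood higher in IP also where no ribosome was tagged. Sstr1 had 4.25 CPM in that IP and 10.6 CPM in its supernatant, and Adcyap1r1 33.3 and 50.6 CPM, so these stood lower. Crhr1, lower in IP with Cre, was 1.31-fold higher here (1.06 to 1.61), and the ratio of Igf1r was 0.945 (0.766 to 1.16). Calcrl had 4 counts in the IP (0.123 CPM) and 13 in the supernatant (0.349 CPM). Glp1r, lower in IP with Cre, was 2.83-fold higher in this IP (1.83 to 4.48). At least 2-fold differences without Cre were seen for 5 receptors on the higher side (13.2%, beside 12.7% of all genes) and 10 on the lower side (26.3%, beside 17.1%). With a single library per fraction these ratios have no test, and their intervals cover counting error only.

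The level in the IP without Cre lay within the range of the 12 young IP libraries with Cre for 36 of 38 receptors, as it did for 83.6% of all tested genes. The exceptions were Sstr3, a somatostatin receptor of neuronal cilia, which was above all 12 (beside 9.29% of all genes), and Npy2r, which was below all 12 (beside 7.11%). Ghsr and Grpr had a count of 0 in the IP without Cre. The exact 95% interval for that count reaches 0.114 CPM, and 3 counts in that library would be 0.0924 CPM. In the supernatant without Cre 10 of 38 receptors (26.3%) lay below all 12 young supernatants with Cre, beside 9.8% of all genes. Among them were Prlr, Oxtr, the oxytocin receptor, Mchr1 and Calcrl. No receptor lay above all 12, beside 12.1% of all genes.

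Within single conditions few receptors passed the test. In young vehicle mice Mchr1 was higher in IP (log2 difference 0.62 ± 0.22, edgeR adjusted p = 0.0388), beside 21.9% of all genes called, in 4 of 12 fits with 1 library left out. In young DHT mice Igf1r was lower (-0.91 ± 0.33, adjusted p = 0.0451), beside 20% of all genes, in 3 of 12 such fits. Without the last 10 sample numbers, described below, neither was called (adjusted p = 0.137 for Mchr1 and 0.319 for Igf1r). In adult vehicle mice Calcrl (-4.25 ± 0.98, adjusted p = 0.00131) and Crhr1 were lower, beside 24% of all genes. In adult DHT mice Calcrl (-3.69 ± 0.87, adjusted p = 0.00161) and Sstr1 (-1.17 ± 0.43, adjusted p = 0.045) were lower, beside 21.5%, and Sstr1 kept its call in 3 of 12 such fits while Calcrl kept it in all 12.

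Receptors whose IP libraries all lay below the supernatants numbered 1 in young vehicle mice (Sstr1, beside 8.24% of all genes), 4 in young DHT mice (Adcyap1r1, Igf1r, Lepr and Ntsr1, beside 7.82%), 6 in adult vehicle mice (Calcrl, Crhr1, Crhr2, Ghsr, Sstr1 and Sstr2, beside 11.9%) and 1 in adult DHT mice (Calcrl, beside 7.65%). The other 29 receptors, which were not called in the average over conditions, spanned log2 differences from -1.25 (Grpr) to 0.60 (Sstr3). The split by direction differed in other fits. In place of edgeR, limma-voom with sample weights called 22 receptors, 1 higher and 21 lower, with a median log2 difference of -0.83. In that fit 21.9% of all genes were higher and 38.2% lower. Whether an IP and a supernatant of the same condition and replicate number are a pair is not in the labels. Measured as deviations from their group means, 19 of 23 IP libraries correlated best with the supernatant of their own number in that condition. The edgeR calls above take no account of such pairs. A fit with a block for each such pair called 14 receptors, all lower, and neither Insr nor Mchr1 was among them. With that block 21.2% of all genes were higher and 35.2% lower.

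A running sample number in the labels separated 10 young libraries, the last to be numbered, from the rest: 5 IP and 5 supernatants, of which 3 each were DHT. The labels do not say what the number stands for. Without those 10 libraries 5 receptors differed between IP and supernatant, all lower (Calcrl, Sstr1, Adcyap1r1, Ghsr and Sstr4), beside 40.2% of all genes. Igf1r, Crhr1 and Glp1r then had edgeR adjusted p of 0.0592, 0.0689 and 0.0821, and Insr and Mchr1 had 0.0851 and 0.0799. Their log2 differences were close to those with all libraries, at -0.50, -0.81, -1.05, 0.53 and 0.30. With a term for these numbers Insr (adjusted p = 0.0480) and Mchr1 (0.0475) were called, and Igf1r, Crhr1 and Glp1r were not.

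In the edgeR fit of both fractions, Calcrl was the receptor whose age difference was not the same in the 2 fractions. Its adult minus young log2 difference, averaged over the treatments, was lower in IP than in supernatant by -3.81 ± 0.83 (age by fraction term, edgeR adjusted p = 0.0037). It was the only receptor of 38 called for that term, beside 4.52% of all genes, and it was called in all 46 fits with 1 library left out. In the adult vehicle IP it held 3, 2, 2, 1 and 5 counts, and 1 to 8 counts in the adult DHT IP. The adult supernatants held 29 to 98 counts.

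The young IP libraries fell into a high and a low set for Calcrl. The 7 with earlier sample numbers held 52 to 158 counts, apart from young DHT replicate 2 with 3, and the 5 with the last numbers held 0 to 3, while the young supernatants held 14 to 63. Without the last 10 numbers the age by fraction term was -4.48 ± 0.72 (edgeR adjusted p = 1.71e-04). Under limma-voom with sample weights it was -2.86 ± 1.05 (adjusted p = 0.122), which ends the call, and Sstr2 was called instead. The block for same-numbered IP and supernatant libraries called 0 receptors for this term, which ends the call of Calcrl too.

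Endothelial markers were measured beside Calcrl, since endothelium is a known source of it. The summed level of Pecam1, Cldn5, Flt1 and Tek ran from 6.58 through 8.93 to 27.0 CPM in young vehicle IP and from 3.29 through 11.2 to 14.1 CPM in young DHT IP. In the adult vehicle IP the 5 sums were 0.0465, 0.0512, 0.193, 4.56 and 3.69 CPM, and the adult DHT IP ran from 0.0349 through 1.64 to 21.9 CPM. Adult DHT IP replicate 4, with the endothelial sum of 21.9 CPM, held 3 counts of Calcrl, and the 2 adult vehicle IP libraries at 4.56 and 3.69 CPM held 1 and 5. Among young IP, vehicle replicate 6 had the highest sum, 27.0 CPM, and held 3 counts. All 4 markers had counts in every Cre group, and in the IP without Cre, where the sum was 1.45 CPM, Flt1 and Tek were at 0. Their part in the Calcrl difference was not tested.

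**Figure D2:**
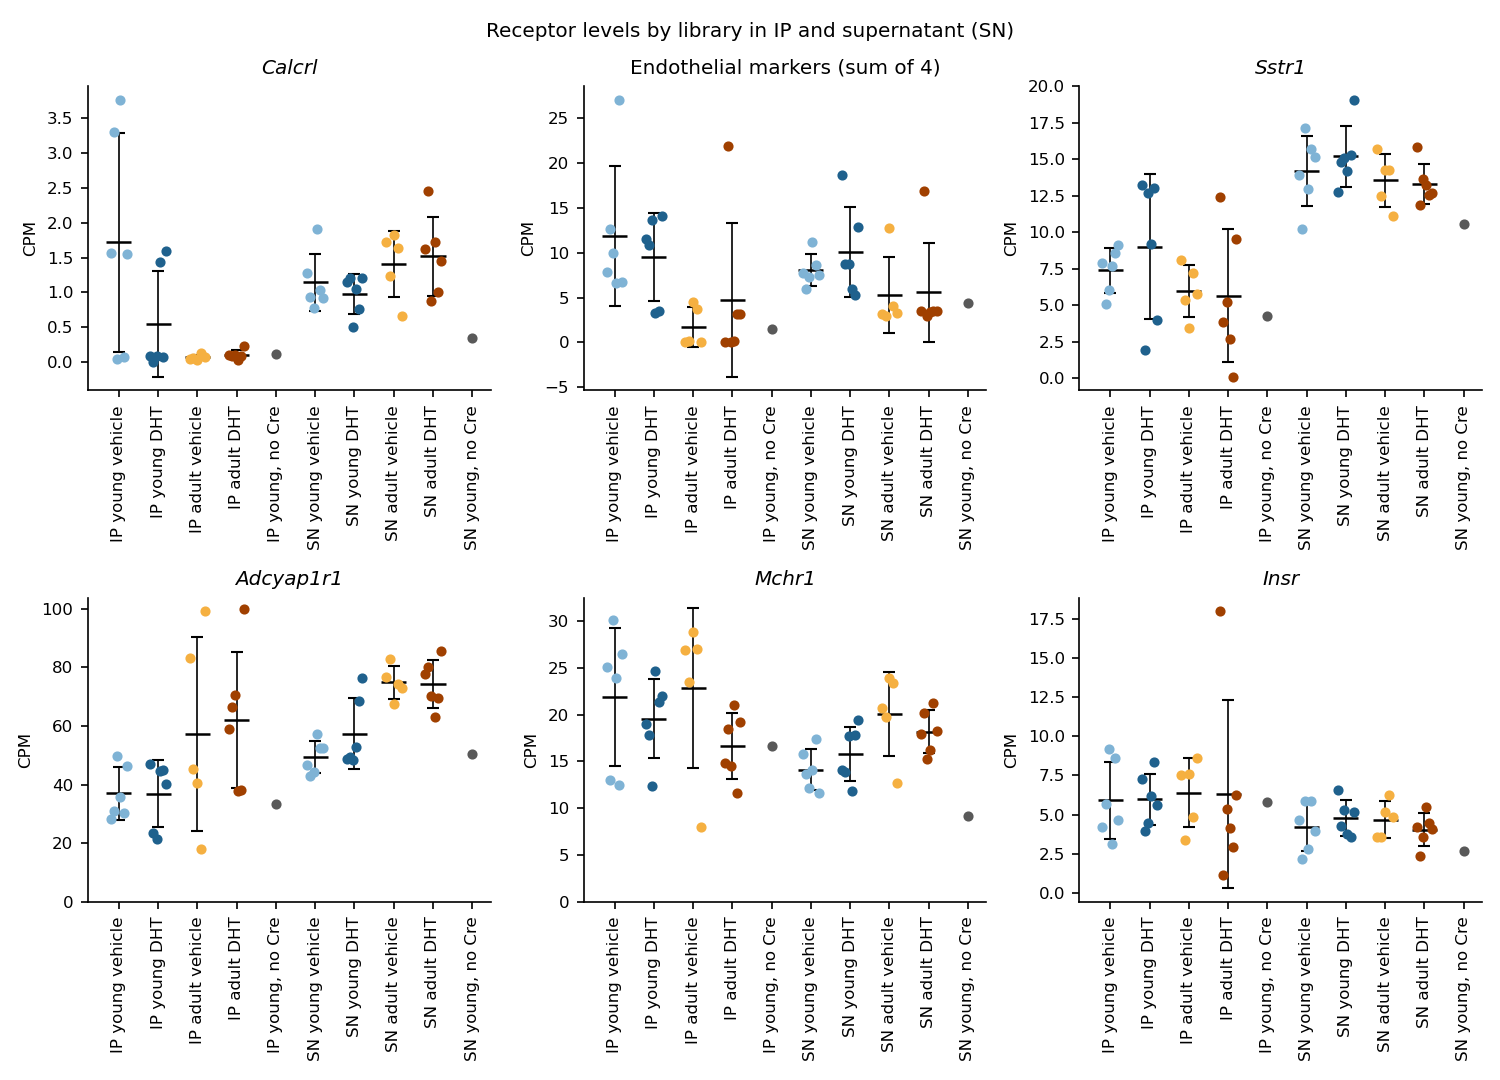
Level in CPM by library (points) with the mean ± SD of each group (bars) for Calcrl, the summed endothelial markers, Sstr1, Adcyap1r1, Mchr1 and Insr in the 8 groups with Cre and in the pair of libraries without Cre. Calcrl is near 0 in all 11 adult IP libraries and in 6 of the 12 young ones, and Sstr1 is lower in IP than in supernatant in each condition by the medians.

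The second comparison asks what prenatal DHT did within each age and fraction. No receptor was called in any of the 4 contrasts. Of all tested genes, 0.00629% (1 gene) were called in adult IP and 0% in each of the other contrasts. DESeq2 and every other setting tried also called no receptor. At an unadjusted p below 0.05, edgeR gave 0 of 37 receptors in young IP (beside 1.5% of all genes), 0 of 37 in adult IP (8.29%), 2 of 38 in young supernatant (4.59%) and 0 of 38 in adult supernatant (2.08%). Grpr fell below the count filter of the IP fits.

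In the young IP the smallest unadjusted p values belonged to Oprl1, Cckar and Calcr, the calcitonin receptor. Oprl1 ran from 28.0 through 49.3 to 64.8 CPM with vehicle and from 17.2 through 81.3 to 102 CPM with DHT, a log2 difference of 0.48 ± 0.25 (95% interval -0.02 to 0.98). The DHT group held both the lowest and the highest library. Cckar ran from 3.65 through 7.77 to 15.3 CPM and from 8.66 through 13.7 to 26.4 CPM (0.80 ± 0.47). Calcr ran from 4.44 through 10.8 to 17.7 CPM and from 10.4 through 13.7 to 22.9 CPM (0.56 ± 0.38). All 3 overlapped between the groups.

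In the adult IP they belonged to Lepr, Hcrtr2, an orexin receptor of arousal circuits, and Mchr1. The 5 vehicle libraries held 1.61, 0.615, 0.608, 0.801 and 0.760 CPM of Lepr, and the 6 DHT libraries ran from 0.850 through 1.24 to 5.64 CPM (log2 difference 1.45 ± 0.74, edgeR adjusted p = 0.638). The first vehicle library lay within the DHT range and the other 4 below it. Hcrtr2 held 3.28, 0.512, 4.12, 6.36 and 0.105 CPM with vehicle and ran from 0.0213 through 9.78 to 19.8 CPM with DHT (1.65 ± 1.01), and limma-voom put it at -0.011. Mchr1 differed by -0.49 ± 0.30.

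In the young supernatant, Mc4r and Ghr had unadjusted p below 0.05. Mc4r, the melanocortin receptor that restrains feeding, ran from 2.15 through 3.60 to 5.44 CPM with vehicle and from 4.60 through 4.97 to 6.22 CPM with DHT (log2 difference 0.51 ± 0.17, unadjusted p = 0.00703, edgeR adjusted p = 0.976). Ghr, the growth hormone receptor, ran from 4.09 through 6.22 to 7.32 CPM and from 6.85 through 7.80 to 9.39 CPM (0.39 ± 0.15, unadjusted p = 0.0181). Each overlapped between the groups, and neither passed the adjustment. The young vehicle libraries also enter the age contrast of vehicle mice below. Trhr, the receptor for thyrotropin-releasing hormone, followed at 0.39 ± 0.19.

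In the adult supernatant the smallest p values belonged to Calcr (log2 difference -0.45 ± 0.22), Ghr (-0.32 ± 0.16) and Cckbr, the brain cholecystokinin receptor (-0.31 ± 0.17), none of them past the test. Counted over the list, 30 of 38 receptors were above 0 in the young supernatant contrast (78.9%, beside 48.1% of all genes, median 0.15) and 10 of 38 in the adult one (26.3%, beside 49.9%, median -0.13). In IP the counts were 17 of 37 in young (all genes 46.9%) and 20 of 37 in adult (50.1%). These are descriptions, since the median SE of a receptor was 0.19 and 0.20 in the supernatant contrasts and 0.75 and 0.79 in the IP contrasts.

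**Figure D3:**
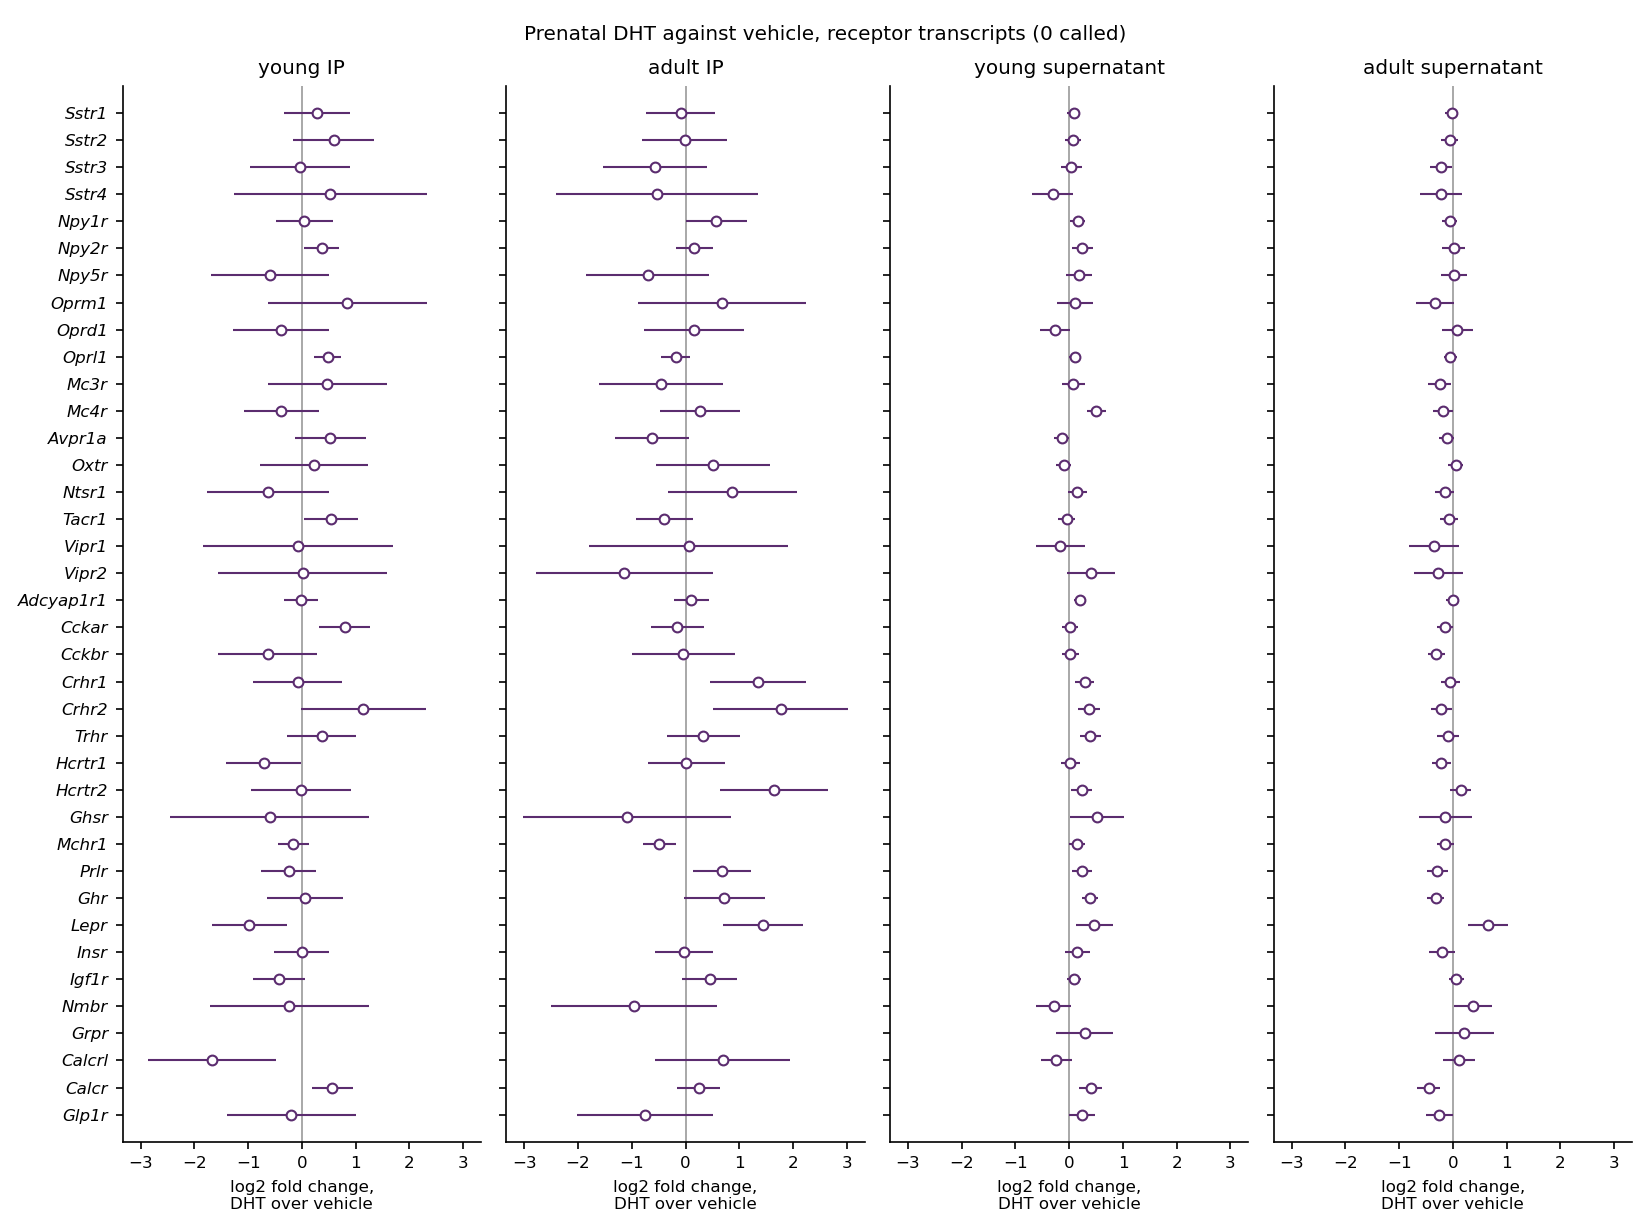
Log2 difference between DHT and vehicle (points, bars ± SE) for each receptor, in 1 panel for each age and fraction. No receptor passed the test in any panel, and the bars are wider in IP than in supernatant. Grpr was not tested in IP.

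The DHT difference was also compared between the ages directly. No receptor was called, 0 of 37 in IP and 0 of 38 in supernatant, with 0% of all genes called in each. For this term DESeq2 called 0.315% of all genes in IP, and no receptor. In supernatant the smallest p values were those of Ghr (-0.70 ± 0.22, unadjusted p = 0.00385), Mc4r (-0.69 ± 0.25, 0.00999) and Calcr (-0.85 ± 0.30, 0.0101), each with an edgeR adjusted p of 0.875. The young contrast and the age-by-treatment term share the young libraries, so their directions are not independent.

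The third comparison asks which receptors differed between adult and young mice. In the supernatant of vehicle mice 11 of 38 receptors were higher in adults and none was lower. They were Adcyap1r1, Prlr, Glp1r, Mc4r, Calcr, Ghr, Mc3r, Ghsr, Mchr1, Npy2r and Trhr, with log2 differences of 0.48 to 1.65. The 11 make up 28.9% of the receptors, beside 20.3% of all genes called, 10.1% higher and 10.2% lower. The median log2 difference was 0.30 for receptors, 30 of 38 of them above 0, and 0.01 for all genes. For 4 receptors (Adcyap1r1, Ghr, Ghsr and Prlr, 10.5%) every adult library lay above every young one, beside 5.43% of all genes.

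**Figure D4:**
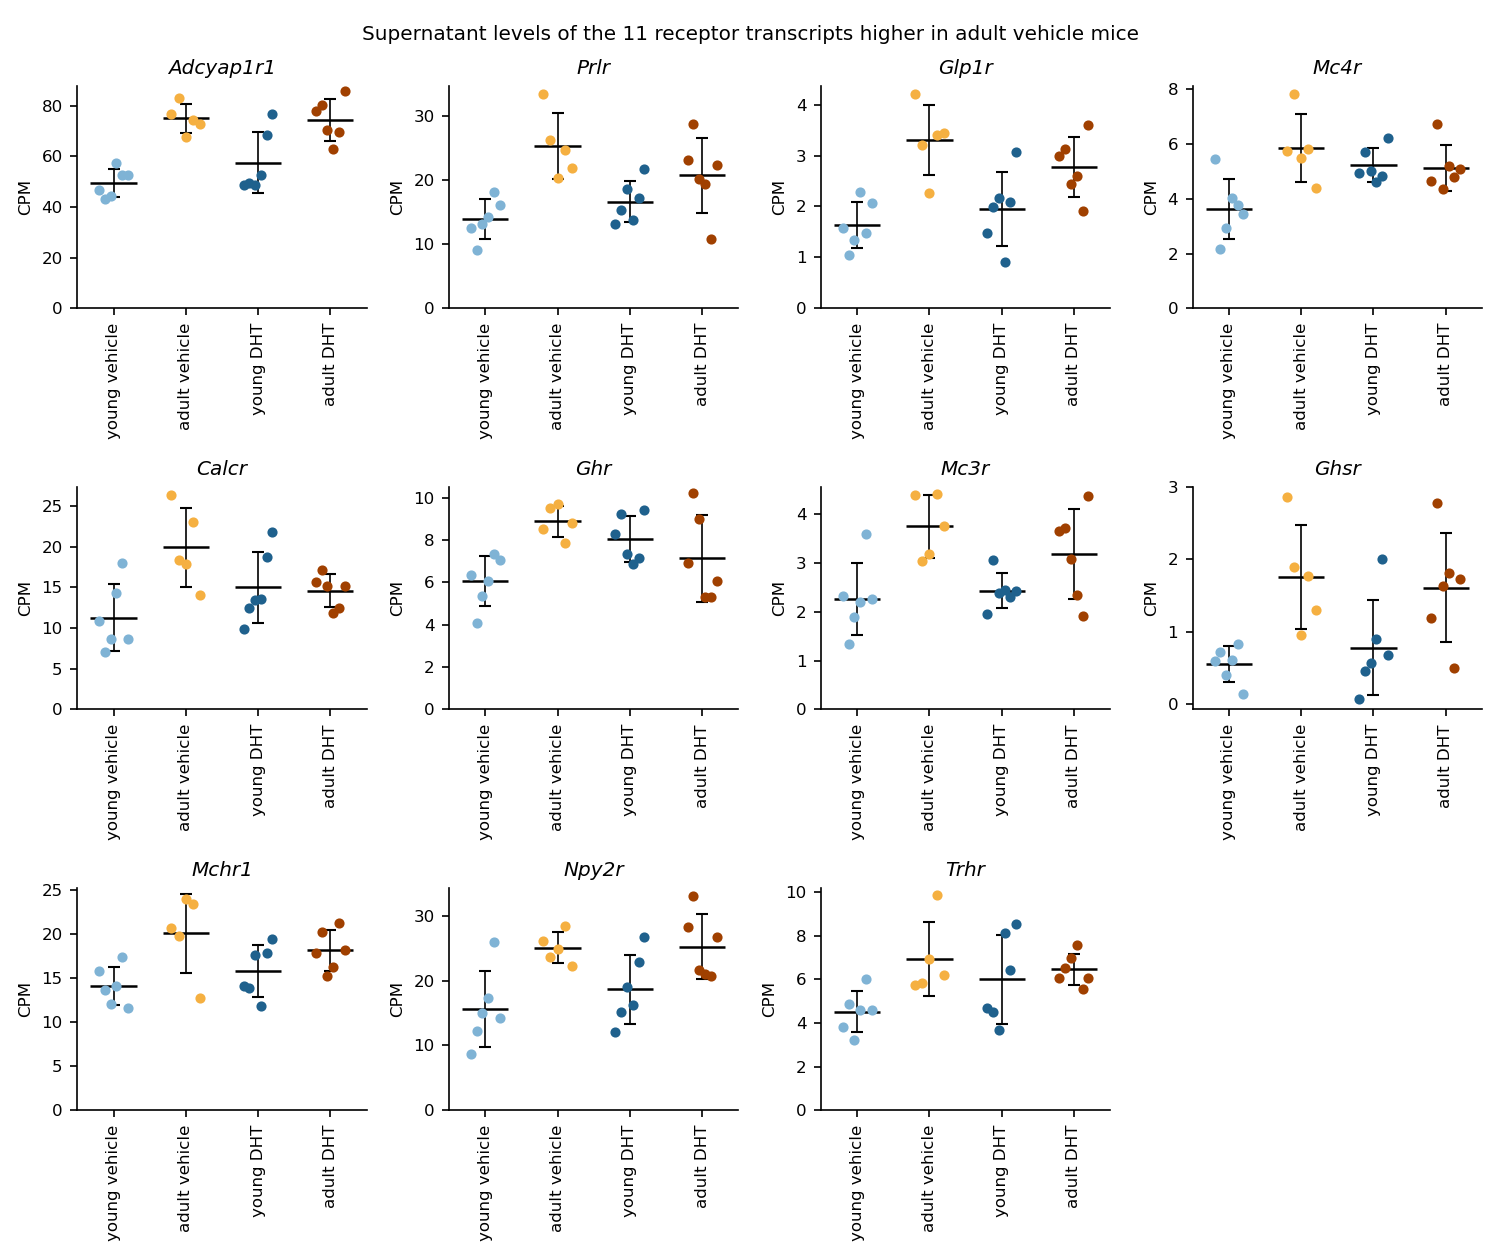
Level in CPM by supernatant library (points) with group mean ± SD (bars) for the 11 receptors that were higher in adult than in young vehicle supernatant, in the 4 supernatant groups. Adult vehicle libraries of Adcyap1r1, Ghr, Ghsr and Prlr lie above all young vehicle libraries. For each of the 11 the median of the young DHT group sits between those of the young and adult vehicle groups. The 11 were picked for a low young vehicle and a high adult vehicle level in these libraries, which by itself favours this order. The contrasts of DHT with vehicle called no receptor.

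Several of the 11 bind hormones from the pituitary or the periphery. Prlr, the prolactin receptor (chromosome 15, 10177238 to 10349180, plus strand), ran from 9.10 through 13.7 to 18.1 CPM in young vehicle mice, and the adults held 21.9, 33.5, 26.2, 20.3 and 24.7 CPM (log2 difference 0.84 ± 0.19, edgeR adjusted p = 0.0032). Ghr ran from 4.09 through 6.22 to 7.32 CPM in the young and held 8.80, 8.50, 9.53, 9.69 and 7.88 CPM in adults (0.53 ± 0.16, adjusted p = 0.0203). No adult library of either overlapped a young one. The call of Ghr was lost without young vehicle replicate 2 (adjusted p = 0.0524).

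Ghsr, the lowest of the 11, ran from 0.135 through 0.598 to 0.834 CPM in young vehicle mice and held 1.29, 2.86, 1.90, 0.957 and 1.77 CPM in adults. The groups did not overlap, with a log2 difference of 1.65 ± 0.51 (edgeR adjusted p = 0.0227). The adjusted p was 0.0769 without adult vehicle replicate 2 and 0.0506 without young vehicle replicate 4. Glp1r ran from 1.05 through 1.53 to 2.28 CPM in the young and held 3.44, 4.20, 3.21, 2.27 and 3.41 CPM in adults, overlapping through adult replicate 4 alone (0.99 ± 0.25, adjusted p = 0.00636).

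Among receptors of brain peptides, Adcyap1r1 ran from 43.1 through 49.6 to 57.2 CPM in the young and held 72.8, 76.8, 83.0, 67.6 and 74.5 CPM in adults (log2 difference 0.58 ± 0.12, edgeR adjusted p = 0.00134). Both melanocortin receptors rose, Mc4r from 2.15 through 3.60 to 5.44 CPM to 4.38, 5.73, 7.82, 5.48 and 5.80 CPM (0.66 ± 0.18, adjusted p = 0.0103), and Mc3r from 1.34 through 2.22 to 3.59 CPM to 3.75, 4.39, 3.04, 3.18 and 4.40 CPM (0.70 ± 0.21, adjusted p = 0.0217). Both overlapped between the ages. Mc3r lost its call without young vehicle replicate 2 (adjusted p = 0.0562) or adult vehicle replicate 2 (0.0632) or 5 (0.0522).

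Calcr, the calcitonin and amylin receptor, ran from 7.10 through 9.81 to 18.0 CPM in the young and held 14.0, 26.4, 18.4, 17.8 and 23.04 CPM in adults (log2 difference 0.80 ± 0.22, edgeR adjusted p = 0.012). Npy2r ran from 8.66 through 14.6 to 26.0 CPM and held 22.2, 26.1, 23.6, 24.9 and 28.4 CPM (0.66 ± 0.21, adjusted p = 0.0277). Both overlapped between the ages.

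Mchr1 ran from 11.6 through 13.9 to 17.4 CPM in the young and held 12.7, 20.7, 19.8, 24.0 and 23.4 CPM in adults (log2 difference 0.48 ± 0.15, edgeR adjusted p = 0.0246). Trhr ran from 3.22 through 4.60 to 6.02 CPM and held 6.21, 5.75, 5.85, 6.92 and 9.84 CPM (0.58 ± 0.20, adjusted p = 0.0413). These groups overlapped too. With 1 library left out, Npy2r and Mchr1 were each called in 6 of 11 fits and Trhr in 5 of 11, and the highest adjusted p were 0.0602, 0.0650 and 0.142.

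Adcyap1r1, Prlr, Glp1r, Mc4r and Calcr were called in all 11 fits with 1 vehicle supernatant left out. The count of called receptors was 7 without adult vehicle replicate 2 or 5 or young vehicle replicate 4, and 14 without young vehicle replicate 6. Without the last 10 sample numbers 16 receptors were called, 15 higher and Oprd1, the delta opioid receptor, lower, beside 23% of all genes. A fit that kept these libraries and modelled them as a separate term called 11, 10 higher and Oprd1 lower, and Ghsr (edgeR adjusted p = 0.0797) and Trhr (0.131) were not. In the fit of all libraries the 27 receptors not called spanned log2 differences from -0.79 (Nmbr, a bombesin-family receptor) to 0.65 (Vipr2).

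In DHT mice the supernatant age contrast called 1 receptor, Adcyap1r1 (log2 difference 0.37 ± 0.11, edgeR adjusted p = 0.0241), beside 19.9% of all genes. It ran from 48.5 through 51.2 to 76.5 CPM in the young and from 63.0 through 74.0 to 85.6 CPM in adults, with overlap. The adjusted p rose to between 0.0598 and 0.0665 without young DHT replicate 4, 5 or 6 or adult DHT replicate 2. Without the last 10 sample numbers the difference was 0.17 (adjusted p = 0.442), and with a term for them 0.24 (0.156). Of the 38 receptors 19 were above 0, with a median of 0.01. Mc4r (-0.03 ± 0.17), Ghr (-0.17 ± 0.15) and Calcr (-0.05 ± 0.21), called with vehicle, were near or below 0 here. The test of that difference is the age-by-treatment term given above, which called no receptor.

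Marker genes of whole cell types also stood at different levels in young and adult supernatant. In vehicle mice the median summed level was 3248 CPM in the young and 3823 CPM in adults for 4 neuronal markers, and 21.8 and 33.5 CPM for 4 microglial markers. It was 3315 and 1748 CPM for oligodendrocyte markers, 481 and 365 CPM for astrocyte markers and 7.62 and 3.24 CPM for endothelial markers, young before adult. In DHT mice the neuronal sum was 3198 CPM in the young and 3813 CPM in adults. Their part in the receptor differences was not tested.

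In IP no receptor was called for age, 0 of 37 in vehicle mice (beside 3.83% of all genes) and 0 of 37 in DHT mice (7.12%). In vehicle mice Oprl1 ran from 28.0 through 49.3 to 64.8 CPM in the young, and the adults held 78.9, 91.0, 93.9, 82.1 and 111 CPM. These groups did not overlap, beside 1.62% of all genes on that side, yet the log2 difference of 0.91 ± 0.27 missed the threshold (edgeR adjusted p = 0.0553). The single young IP library without Cre held 94.9 CPM of Oprl1, above every young vehicle IP library and within the adult vehicle range. It lay within the 12 young IP libraries with Cre of both treatments, at 17.2 to 102 CPM. Calcrl differed by -4.58 ± 1.46 (adjusted p = 0.0788) and Npy2r by 0.95 ± 0.35 (0.127). DESeq2 called Oprl1 as higher and Calcrl as lower in adult vehicle IP.

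**Figure D5:**
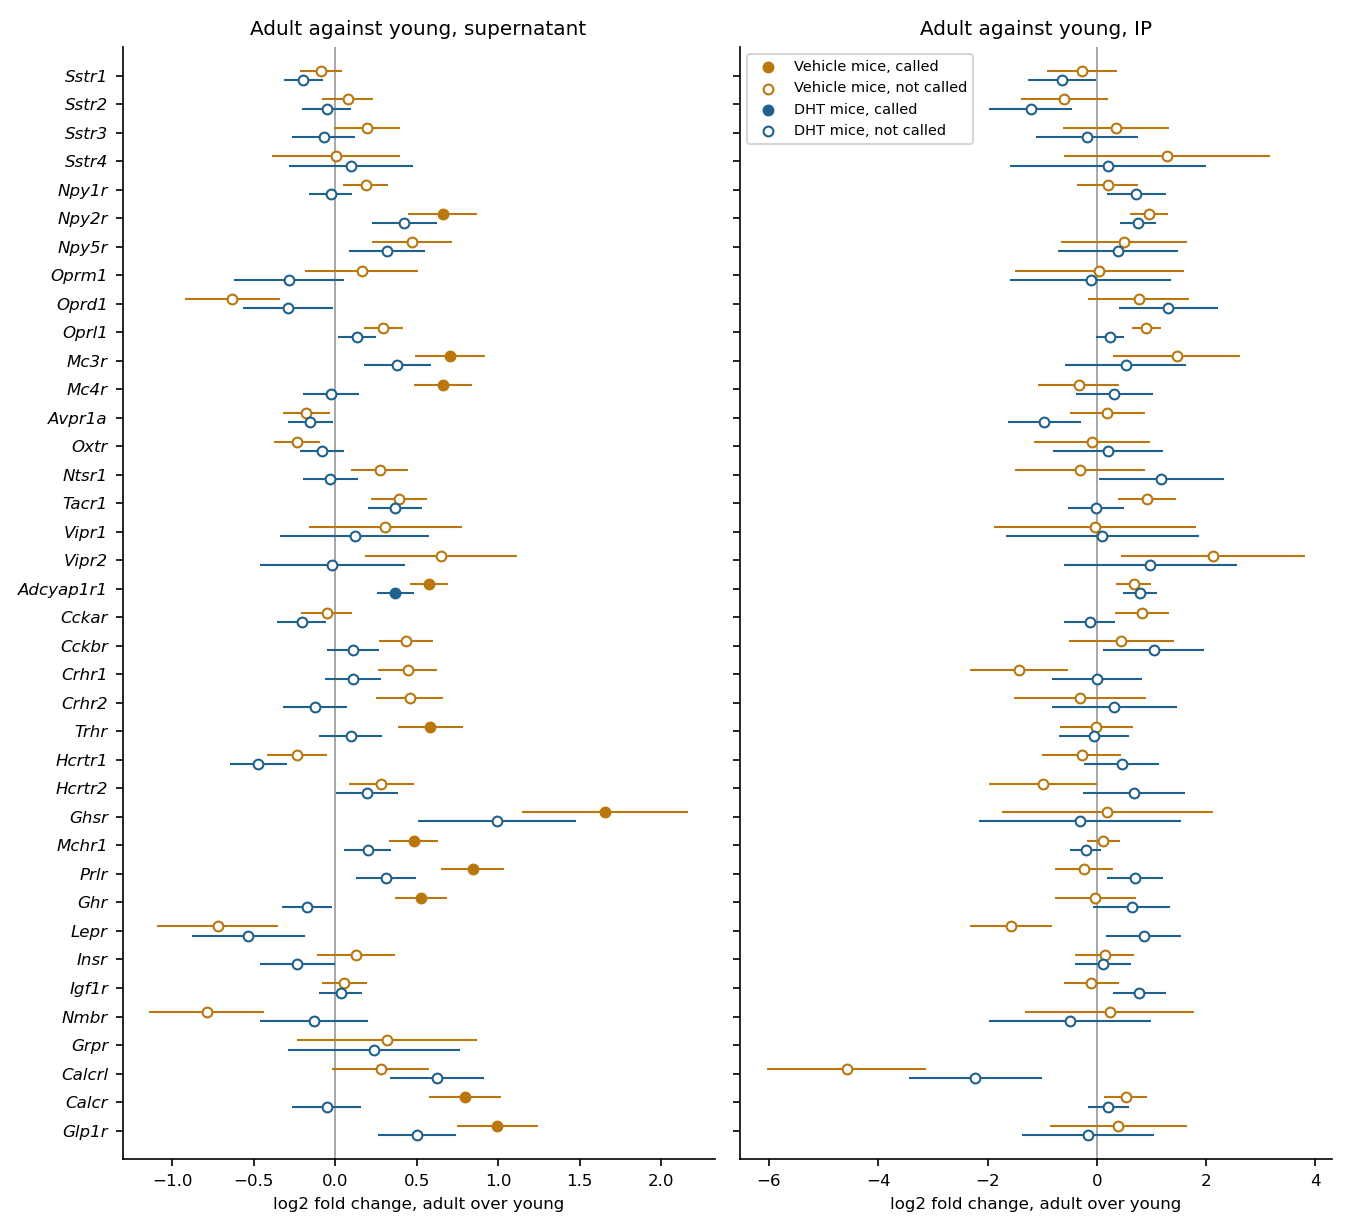
Log2 difference between adult and young mice (points, bars ± SE) for each receptor, in vehicle and in DHT mice, with supernatant in the left panel and IP in the right. The 11 receptors called in vehicle supernatant lie on the higher side, and no receptor was called in IP.

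Averaged over the 2 treatments, a contrast added after the data had been seen, 4 receptors were called in IP, beside 15.1% of all genes. Npy2r (log2 difference 0.85 ± 0.24, edgeR adjusted p = 0.0166), Adcyap1r1 (0.73 ± 0.23, 0.0297) and Oprl1 (0.57 ± 0.18, 0.0347) were higher in adults and Calcrl (-3.40 ± 0.94, 0.0148) was lower. In supernatant the same average called 11 receptors, 10 higher and Hcrtr1, an orexin receptor, lower, beside 36.1% of all genes. Of these, 8 were among the 11 called with vehicle alone.

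The peptides that bind these receptors were followed as a list of 37, of which 29 passed the filter of the fit of both fractions. Between IP and supernatant 5 were higher (Nts, neurotensin, 0.84; Tac1, the substance P precursor, 0.82; Pnoc, the nociceptin precursor, 0.81; Pomc 0.51; Cartpt 0.50) and 1 was lower (Igf2, -1.86), with a median log2 difference of 0.21. All genes stood at 24.4% higher and 21.7% lower in that contrast. Where no ribosome was tagged, Pomc also stood higher in IP, at 12.7 CPM beside 6.31 CPM in supernatant (1 library each, no test). The other ligands, and the genes of the next lists, are not set against that background here. In vehicle supernatant 9 of 28 rose with age and none fell, with a median of 0.46, beside 10.1% of all genes higher and 10.2% lower. Nts (0.99, edgeR adjusted p = 6.37e-05), Pdyn, the dynorphin precursor (1.18, 8.56e-05), and Penk, the enkephalin precursor (0.87, 0.00127), were among them. In DHT supernatant 2 rose (Iapp and Pdyn) and 1 fell (Npy, -1.23, adjusted p = 0.00109), beside 9.47% and 10.5% of all genes. No ligand was called for DHT in any of the 4 contrasts.

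Partners and signalling proteins of the receptors made a second list, with 33 genes tested. Between IP and supernatant 5 were higher and 11 lower, with a median of -0.15, beside the same 24.4% and 21.7% of all genes. Those of smallest adjusted p were Adrbk1, a kinase that desensitises receptors (-0.93), Sh2b1, an adaptor of leptin and insulin receptors (-0.83), Crcp, a component of CGRP receptors (0.74), and Igfbp5, which binds insulin-like growth factors (-1.12). In vehicle supernatant 5 rose with age, among them Igfbp5 (0.66), Ramp3 (0.54), Cish (0.52), a target of Stat5, and Mrap2 (0.50), a partner of Mc4r, while Irs1 (-0.67), Sh2b1 and Rgs4 fell, against the shares of all genes given for the ligands. In DHT supernatant 4 rose, Stat3 (0.52), Cish (0.53), Stat5a and Arrb1, and Rgs4 fell. Of related receptors outside the 38, 1 was higher (Npffr1, 0.77) and 4 were lower in IP among 19 tested (24.4% and 21.7% of all genes), and 1 of 18 rose with age in vehicle supernatant (Oprk1, the kappa opioid receptor, 0.44, beside 10.1% of all genes).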

How the data were processed

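The members and the lists of ligands, partners and related receptors were chosen with earlier results of these data known. Values are estimated counts as deposited by the authors (98.49% whole), rounded before any test. The submitters' processing notes name build mm10, Bowtie2 2.2.1, TopHat2 2.0.13, HTSeq 0.6.1, Cufflinks and Cuffdiff 2.1.1, DESeq2 1.14.1 and FastQC 0.11.3, with no role for each. The counting tool and its annotation are not given in the sources used here. The SMARTer v4 kit named in the labels does not mark strand.

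Groups and replicate numbers came from the labels. Genes passing filterByExpr (minimum count 10, minimum total 15) were scaled by TMM and tested in R 4.3.3 with edgeR 4.0.16 (quasi-likelihood F test, robust dispersions, Benjamini-Hochberg over all genes tested). A fit of 46 libraries (16660 genes) compared the fractions, and fits of 23 libraries compared treatment and age within IP (15890 genes) and supernatant (16286 genes). Standard errors came from the F statistic. Intervals for the libraries without Cre are exact, at 95%, and cover counting error only, and these libraries entered no fit. Members called in any contrast, the 3 of highest level per kilobase and the 3 of smallest p in each DHT contrast were described with values, and up to 4 genes of smallest adjusted p per list were named. The alternatives were DESeq2 1.42.0, RLE or library-total scaling, limma-voom (limma 3.58.1), no filter, a filter of 1 CPM in every library of a group, fitting only the groups compared, a replicate block, a term for or removal of the last 10 sample numbers, and each library left out. In the fit of both fractions the replicate block tied each IP to the supernatant of the same condition and replicate number. Within a fraction it was a term for the replicate number. The script was tested on simulated counts.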

Additional observations from a re-analysis of the deposited data

Results flagged for a closer look

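In groups of 5 or 6 libraries, 9 of 86 sets of receptor values had 1 library far from the others (Dixon's gap test at 95%), 7 of 36 in IP and 2 of 50 in supernatant. For values with a normal spread, chance gives about 1 in 20 such sets. Values near 0, such as those of Ghsr and Calcrl in IP, need not keep to that rate. In adult DHT IP, Ghsr was at 1.17 CPM in replicate 2, with the next library at 0.0270 CPM, and Calcrl was at 0.234 CPM in the same library, with the next at 0.106 CPM. Insr was at 18.0 CPM in replicate 3 of that group, with the next at 6.28 CPM, and Crhr1 at 10.7 CPM in replicate 6, with the next at 3.97 CPM. In young vehicle IP, Glp1r was at 2.98 CPM in replicate 3, with the next at 1.10 CPM, and Ghsr at 1.49 CPM in replicate 6, with the next at 0.552 CPM. Mchr1 was lowest in adult vehicle IP replicate 1, at 7.96 CPM, with the next library at 23.5 CPM. In adult vehicle supernatant, replicate 5 had the lowest Igf1r, at 7.10 CPM with the next at 9.40 CPM, and the highest Trhr, at 9.84 CPM with the next at 6.92 CPM.

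The adult minus young difference of Calcrl was tested between the fractions, and the term was -3.81 on the log2 scale (edgeR adjusted p = 0.0037). Calcrl was low in all adult IP libraries and in the 5 young IP libraries with the last sample numbers, where it held at most 3 counts, and what that number stands for is not in the labels.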

How the results depend on the processing

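DHT contrasts called 0 receptors under every setting and every fit with 1 library left out, and Hcrtr2 in adult IP turned from 1.65 to -0.011 under limma-voom. For IP against supernatant over the 4 conditions (9 called), limma-voom called 22, of which only Mchr1 was higher. The fit without the last 10 sample numbers called 5 and the replicate block 14, and in these fits every called receptor was lower and neither Insr nor Mchr1 was called. In young vehicle mice (1 called), DESeq2 and the compared groups alone called 2, limma-voom 5 and the term for the last 10 numbers 0. The replicate block and the removal of those numbers each called 1, Sstr4 in place of Mchr1. In young DHT mice (1 called), DESeq2, the 1 CPM filter and the compared groups alone called 2, limma-voom 6, and no filter, the term for and the removal of the last 10 numbers 0, and the replicate block called Adcyap1r1 in place of Igf1r. In adult vehicle mice (2 called), limma-voom called 5, the 1 CPM filter 1 and the replicate block 6, and the compared groups alone called Sstr1 in place of Crhr1. In adult DHT mice (2 called), no filter, the 1 CPM filter, the removal of the last 10 numbers and the compared groups alone called 1, and the replicate block 4. For age in vehicle IP (0 called), DESeq2 and the removal of the last 10 numbers called 2, the 1 CPM filter, the term for those numbers and the compared groups alone 1, and the mean of both treatments, added after the data had been seen, 4. In DHT IP limma-voom called 1 in place of 0. For age in vehicle supernatant (11 called), the settings other than leaving out 1 library called 10 to 16, limma-voom 15, and Trhr was not called under the replicate block (adjusted p = 0.0588). For age in DHT supernatant (1 called), DESeq2, library-total scaling, the 1 CPM filter and the replicate block called 2, limma-voom 5, and the term for and the removal of the last 10 numbers 0. For age by fraction (1 called), the replicate block called 0, with Calcrl at an adjusted p of 0.139, and the 1 CPM filter 0, because Calcrl did not pass it. For that term limma-voom called Sstr2, on the lower side, in place of Calcrl. The cause of the other changes was not tested. With 1 library left out, the counts ran from 7 to 11 over the 4 conditions, 0 to 1 in young vehicle, 0 to 2 in young DHT, 1 to 4 in adult vehicle and 1 to 5 in adult DHT mice, 7 to 14 for age in vehicle supernatant and 0 to 4 in DHT supernatant. The labels do not state that replicate numbers pair an IP with its supernatant: deviations of same-numbered libraries correlated from -0.0708 to 0.422, above 0.1 in 18 of 23 pairs, and 19 of 23 IP libraries correlated best with their own number. Depth limits receptors with few counts, such as Calcrl with 1 to 8 counts in adult IP libraries.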
